A study of Mus musculus with 8 samples.

Results

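Tumor necrosis factor (Tnf), its receptors and the inhibitors that NF-kB switches on were followed in the cells of 2 mouse lung tumors. The set holds 10 genes of the 27923 listed: Tnf, the receptors Tnfrsf1a and Tnfrsf1b, the feedback genes Tnfaip3, Nfkbia, Nfkbiz and Nfkbie, the subunit gene Nfkb1, and the receptor-complex genes Birc3 and Traf1. All 10 were found by symbol. They were chosen by measured values of these libraries: their UMIs and shares of positive barcodes per cell class and per library, border and whole, and their detection together within neutrophils. Their values are therefore a description, without a test.

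The tumors came from chimeric mice of a genetically engineered lung adenocarcinoma model that carries p53 fl/fl, made from embryonic stem cells of that model in albino C57BL/6 blastocysts. Tumors were started at 12 weeks of age by intratracheal adenovirus that carries Cre under the SPC promoter of alveolar type II cells, and were dissected 16 weeks later. All 8 libraries share this genotype and treatment. Tumor 1 and Tumor 2 came from 1 mouse each, 1 male and 1 female. Tissue slices were stained with calcein NVOC, a dye that fluoresces only after it is uncaged by light. The Healthy/Tumor Border library of each tumor (1 per tumor) holds cells sorted as positive for uncaged calcein and for calcein violet, a viability dye. The Whole Tumor of each tumor gave 3 Seq-Well arrays of cells that were not photoactivated, which are technical arrays of 1 tumor and not separate mice. Exposure to the uncaging light and the sort for uncaged calcein therefore cannot be told apart from the place of the border cells. With 1 mouse per tumor, sex and every other trait of the mouse cannot be told apart from the tumor.

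TNF is made as a membrane protein, mostly by myeloid and T cells, and is shed by a protease. It binds Tnfrsf1a, which many cell types carry, and Tnfrsf1b, found mainly on blood cells, and both lead to the kinases that free NF-kB from its IkB inhibitors. NF-kB then raises the transcription of its own brakes: Nfkbia encodes the IkB that takes it back out of the nucleus, and Tnfaip3 a ubiquitin-editing enzyme that quiets the receptor complex. Tnf itself is a target of the same factor, and neutrophils and macrophages are known sources of it in inflamed lung.

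Barcodes with at least 200 genes were placed in a cell class when they held at least 2 UMIs of its marker genes and passed no other gate. Of 4343 barcodes, 3894 had at least 200 genes, 2180 of them fell in 1 class, 1116 passed no gate and 598 passed several. Neutrophils (Csf3r, G0s2, Clec4d and Cxcr2) were the largest class, with 1220 barcodes, or 1677 when barcodes that pass a second gate are kept. There were 349 at the Healthy/Tumor Border of Tumor 1, 94 to 204 in its arrays, 77 at the border of Tumor 2 and 68 to 196 in its arrays. Of the markers outside the gate, S100a9 stood at 5880 CPM (UMIs per 1000000 UMIs of the class) and S100a8 at 2158 CPM in neutrophils, against 11.4 and 3.79 CPM in C1q macrophages. The C1q genes summed to 0 to 2 UMIs in any library of neutrophils. That follows from the gating, since barcodes with at least 2 C1q UMIs were left out of the neutrophils. Ly6g, a usual mouse neutrophil marker, had 2 UMIs in all. Libraries held 405627 to 2029200 UMIs. Array 2 of Tumor 2 is the shallow one, with a median of 617 UMIs per neutrophil against 1714 to 2435 elsewhere. In all 8 libraries the cell names inside the tables carry the number of the other tumor than the sample labels. The labels were used, and the numbers of barcodes per tumor and region are those the study gives under the same numbering. The 3894 barcodes with at least 200 genes hold 3848 distinct sequences. Of these sequences 10 occur in more than 1 library, and 4 such barcodes are neutrophils.

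The members lie on 9 chromosomes of GRCm38 (GENCODE vM21), Tnf at chr17:35199381-35202007 on the minus strand, Nfkbia at chr12:55489410-55492647 on the minus strand, Tnfaip3 at chr10:19000910-19015657 on the minus strand, and Nfkbiz at chr16:55811375-55838899 on the minus strand. No annotated gene overlaps a member except Gm43430, on the strand of Nfkb1. Promoter sequence from RefSeq (GRCm38.p6) was at hand for 8 members and not for Nfkbiz or Nfkb1. The 250 bases before the RefSeq start of Tnf (chr17:35202008-35202257, minus strand), Tnfaip3 (chr10:19015411-19015660, minus strand) and Nfkbia (chr12:55492648-55492897, minus strand) are shown because these genes carry the contrasts below. The RefSeq start of Tnfaip3 lies inside the GENCODE gene given above, so most of its window overlaps that gene. Capitals mark matches to the kappa B consensus, the 10-base motif that NF-kB binds, on either strand.
Tnf: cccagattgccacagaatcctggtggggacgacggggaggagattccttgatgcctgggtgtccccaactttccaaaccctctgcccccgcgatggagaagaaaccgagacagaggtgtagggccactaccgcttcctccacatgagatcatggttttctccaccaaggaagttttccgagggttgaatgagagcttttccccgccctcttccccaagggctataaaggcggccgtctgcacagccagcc
Tnfaip3: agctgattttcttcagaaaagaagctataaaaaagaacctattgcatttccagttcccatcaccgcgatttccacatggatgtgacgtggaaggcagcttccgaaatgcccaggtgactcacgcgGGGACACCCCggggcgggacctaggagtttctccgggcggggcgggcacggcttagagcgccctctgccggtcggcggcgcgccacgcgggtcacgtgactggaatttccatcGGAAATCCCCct
Nfkbia: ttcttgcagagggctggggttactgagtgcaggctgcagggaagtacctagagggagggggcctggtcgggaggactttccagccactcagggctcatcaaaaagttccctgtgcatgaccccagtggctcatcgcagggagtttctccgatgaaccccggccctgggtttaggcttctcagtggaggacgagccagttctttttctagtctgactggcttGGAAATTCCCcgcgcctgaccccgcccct
Tnfaip3 holds 2 matches, which begin 125 and 12 bases before its start, and Nfkbia holds 1, which begins 29 bases before its start. The only other match was 1 in Nfkbie, at 106 bases. Tnfaip3 has a second listed start, whose window holds none. In this window the Tnf sequence has no match to these letters. The consensus occurs in 7.25% of the 32851 promoter sequences of this length and the AP-1 site TGANTCA, searched on both strands, in 6.75%. The AP-1 site was found in Tnfaip3 (at 136 bases) and Nfkbie (at 156 bases).

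Tnf was the member that stood out at the Healthy/Tumor Border of both tumors. In neutrophils of Tumor 1 it reached 3034 CPM at the border, against 479.6, 293 and 362 CPM in arrays 1, 2 and 3 of the Whole Tumor. In Tumor 2 it reached 828 CPM at the border, against 259, 167 and 221 CPM in the arrays. The border library lay above all 3 arrays in each tumor, 8.02-fold over their mean in Tumor 1 and 3.83-fold in Tumor 2. Of genes with at least 50 neutrophil UMIs, 12.25% lay above all arrays in Tumor 1 and 35.6% in Tumor 2. The lowest border value, that of Tumor 2, was also above every array of Tumor 1. UMIs behind these values number 2596 and 120 at the borders and 14 to 164 in an array.

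The share of neutrophils with a Tnf UMI was also higher at the borders. After each barcode was thinned to 1000 UMIs, which leaves out 208 of the 1220 neutrophils (105 of them from array 2 of Tumor 2), 56.8% (95% exact Clopper-Pearson interval 51.1 to 62.3%) of 317 neutrophils at the border of Tumor 1 held a Tnf UMI. The Whole Tumor arrays of Tumor 1 held 13.8 to 19.5%. At the border of Tumor 2 the share was 37.7% (26.3 to 50.2%) of 69 neutrophils, and in its arrays 12.2 to 15.1%. The intervals cover counting error only. Before thinning the shares were 64.8% and 53.2% at the borders and 9.09 to 25.2% in the arrays. The highest Tnf count of 1 neutrophil was 94 UMIs at the border of Tumor 1 and 11 at that of Tumor 2, beside 3 to 46 in the arrays. In classes that should lack Tnf, the thinned share was 4.84% of 186 epithelial barcodes (median 2400 UMIs before thinning, against 2053 in neutrophils) and 0 of 25 fibroblast barcodes. Every neutrophil library lay above that epithelial share. At the border of Tumor 1 alone, 22.2% of 9 thinned epithelial barcodes held Tnf (364 CPM, 16 UMIs), against 2.899 to 6.12% in its arrays, but 13 of the 16 UMIs came from 1 barcode. The part of this background in the neutrophil values was not tested.

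**Figure D1:**
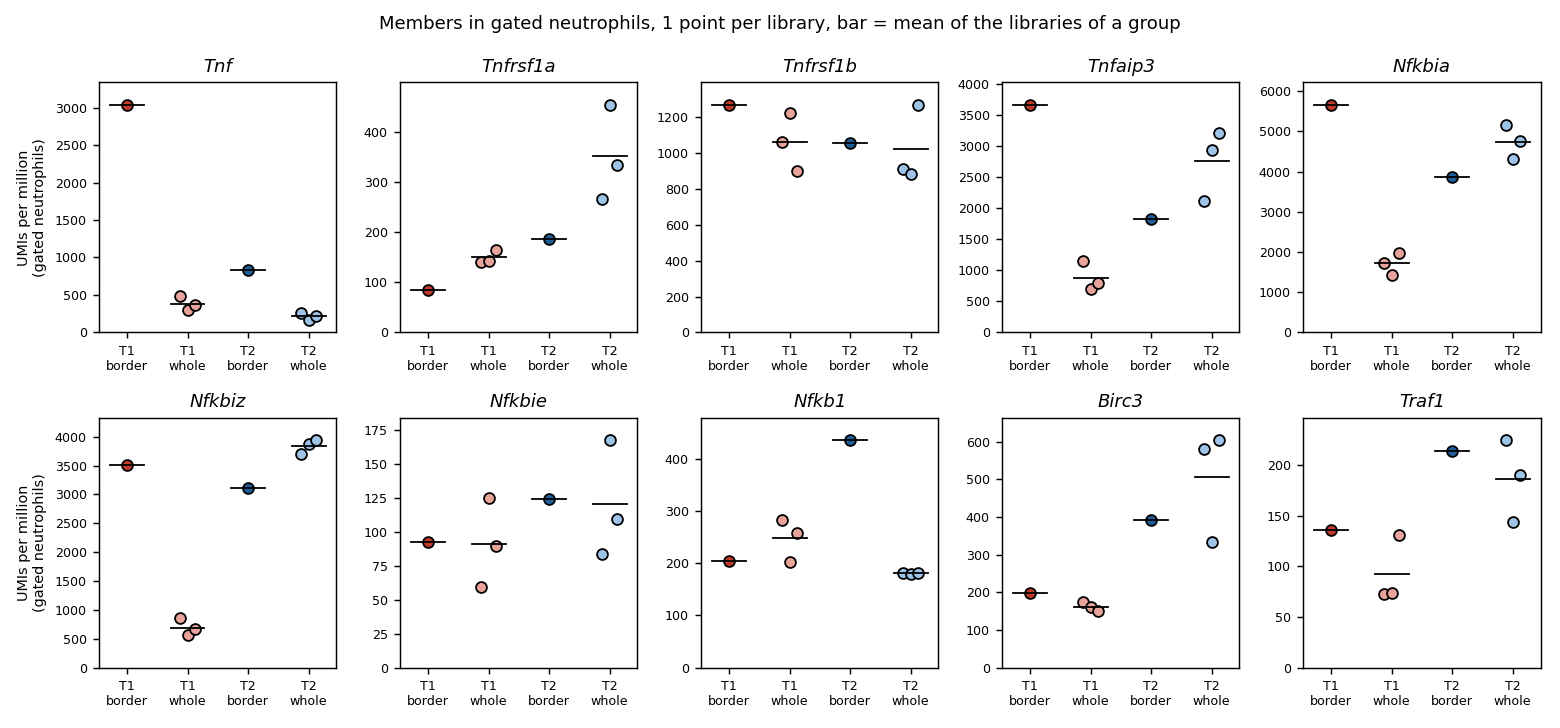
CPM of each member in gated neutrophils, with 1 point per library and a bar at the mean of the group (T1, Tumor 1; T2, Tumor 2; border, 1 library; whole, 3 technical arrays; each panel has its own linear axis from 0). Tnf is highest at the border of Tumor 1 (3034), followed by the border of Tumor 2 (828), whereas Nfkbiz is as high in the Whole Tumor of Tumor 2 (3692 to 3935) as at the border of Tumor 1 (3503).

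The receptors had another pattern. Tnfrsf1a, which carries the death domain, was below all 3 arrays at both borders: 85.3 CPM at the border of Tumor 1 against 142, 143 and 164 CPM, and 186 CPM at that of Tumor 2 against 266, 454 and 335 CPM. These are 0.570 and 0.530 of the arrays' means, from 73 and 27 UMIs at the borders. In Tumor 1 this place was common, since 57.4% of genes with at least 50 neutrophil UMIs lay below all arrays (32.0% in Tumor 2). An edgeR estimate with TMM scaling gave Tnfrsf1a a log2 change of -0.33 in Tumor 1. Within mature-type neutrophils of Tumor 1, a subset described below, Tnfrsf1a lay within the arrays (log2 ratio -0.27 in place of -0.81). Tnfrsf1b, the receptor of blood cells, differed little in the main setting. It stood at 1268 CPM at the border of Tumor 1, just above the arrays (1059.7, 1226 and 901 CPM), and at 1056 CPM at that of Tumor 2, within its arrays (911, 885 and 1267 CPM). Other settings gave log2 ratios of -0.044 to 0.88 in Tumor 1, against 0.26 in the main one. In Tumor 2 they gave -0.61 to 0.25, against 0.049.

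The 3 abundant feedback genes went opposite ways in the 2 tumors. In Tumor 1, Tnfaip3 reached 3657 CPM at the border against 1142, 690.1 and 796 CPM in the arrays, or 4.17-fold their mean. Nfkbia reached 5655 CPM against 1727, 1434 and 1984 CPM, or 3.30-fold. Nfkbiz, an atypical nuclear IkB needed for a second wave of targets, reached 3503 CPM against 854, 563 and 669 CPM, or 5.04-fold. All 3 thus lay far above every array of that tumor, beside Tnf.

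In Tumor 2 the border lay below every array for each of these genes, while Tnf lay above. Both places were common in that tumor, where 32.0% of genes with at least 50 neutrophil UMIs lay below all arrays and 35.6% above. Tnfaip3 stood at 1828 CPM against 2109, 2941 and 3211 CPM, or 0.664 of the mean. Nfkbia stood at 3878 CPM against 5149.7, 4315 and 4767 CPM, or 0.817 of the mean. Nfkbiz stood at 3105 CPM against 3692, 3873 and 3935 CPM, or 0.810 of the mean. The gaps in Tumor 2 are small in the main setting, and other settings moved them both ways. The lowest log2 ratios were -1.14 for Tnfaip3, -0.66 for Nfkbia and -1.07 for Nfkbiz. When only barcodes with at least 500 genes were kept, all 3 genes lay within the arrays of Tumor 2, with log2 ratios of -0.16 for Tnfaip3, 0.019 for Nfkbia and -0.27 for Nfkbiz.

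The border of Tumor 1 also stood apart outside the neutrophil gate. Among its 200 barcodes that passed no gate, Tnf was at 1968 CPM against 73.3, 173 and 116 CPM in arrays 1, 2 and 3, although 88 of the 295 UMIs came from 1 barcode. Thinned to 1000 UMIs, 48.98% of 49 such barcodes held Tnf, against 7.41 to 8.93% in the arrays. Tnfaip3 (1735 CPM against 319 to 1157 CPM), Nfkbia (3289 CPM against 571 to 984 CPM) and Nfkbiz (2088 CPM against 219.8 to 700.3 CPM) were likewise above all 3 arrays in these barcodes. Ungated barcodes at the border of Tumor 2 held Tnf at 196 CPM, within the arrays (94.96 to 256 CPM). These barcodes are shallow, with a median of 497 UMIs over all libraries, and their cell types were not determined.

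Nfkbie, the IkB of slower resynthesis, was low and within the arrays in both tumors (92.3 and 124 CPM at the borders, 59.4 to 167 CPM in the arrays). It kept that place in 8 of 10 other settings in Tumor 1 and in 6 of 9 in Tumor 2. There its log2 ratio reached 1.475, in place of 0.046. Nfkb1, which encodes the precursor of the small NF-kB subunit, was within the arrays in Tumor 1 (205 CPM against 202 to 283 CPM) and above them in Tumor 2 (435 CPM, 63 UMIs, against 182, 179 and 182 CPM), though within them with at least 500 genes (log2 ratio 0.64 in place of 1.26). In Tumor 1 Nfkb1 kept its place in 6 of 10 other settings, with log2 ratios of -1.22 to 0.19. Birc3, a ubiquitin ligase of the receptor complex, gave 198 CPM against 149 to 174 CPM in Tumor 1 and 393 CPM against 335 to 603 CPM in Tumor 2. Traf1, an adaptor of that complex, gave 136 CPM against 73.1 to 131 CPM and 214 CPM against 143 to 224 CPM.

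Over the 10 members, the border of Tumor 1 was above all arrays for 7, below for 1 and within them for 2. Among the 4524 genes with at least 50 neutrophil UMIs in that tumor, 12.25% lay above and 57.4% below. In Tumor 2 the members split into 2 above, 4 below and 4 within, where 35.6% of 2017 genes lay above and 32.0% below. The median log2 ratio of border to arrays was 0.42 for the members and -0.50 for all those genes in Tumor 1, and -0.12 and 0.03 in Tumor 2. Since this contrast took part in choosing the members, nothing is read from these counts.

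**Figure D2:**
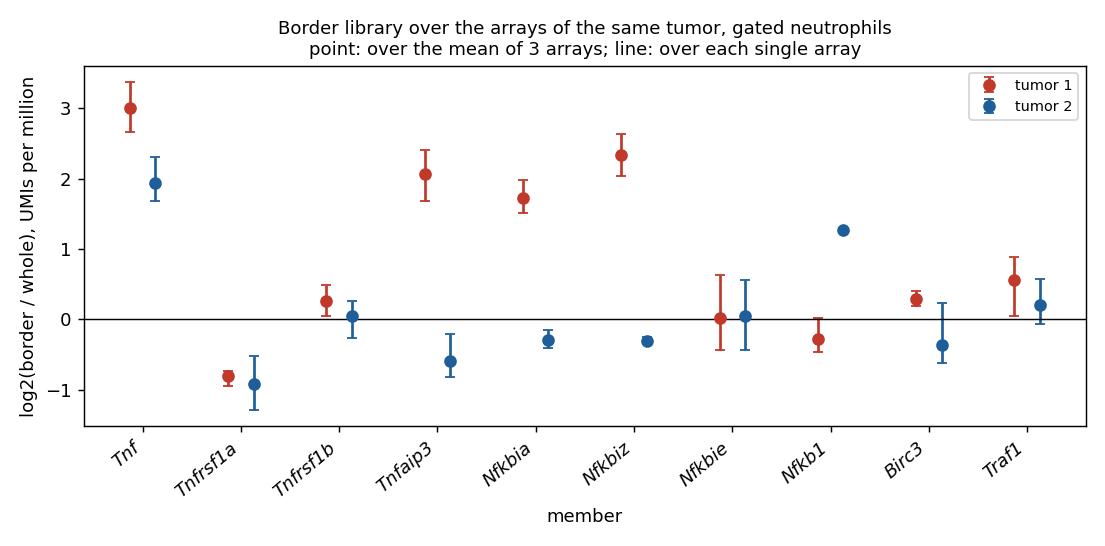
Log2 ratio of the Healthy/Tumor Border library to the Whole Tumor arrays for each member in gated neutrophils (point, to the mean of 3 arrays; line, from the ratio to the highest array to that to the lowest; red, Tumor 1; blue, Tumor 2). Tnf is above 0 in both tumors (3.003 and 1.94), and Tnfaip3, Nfkbia and Nfkbiz are above 0 in Tumor 1 (2.06, 1.72 and 2.33) and below it in Tumor 2 (-0.59, -0.29 and -0.30).

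The neutrophils of the 2 tumors differ in kind. Barcodes with a UMI of any of 5 marker genes, among them Retnlg, Hdc, Asprv1 and Mmp8, and none of Siglec5, Rab15, Entpd3 or Ffar2, called mature-type here, made up 80.9 to 93.4% of neutrophils in the arrays of Tumor 2 but 7.35 to 16.2% in those of Tumor 1. The borders lay between, at 21.2% in Tumor 1 and 48.1% in Tumor 2. Barcodes with the opposite pattern, called Siglec-F-type, made up 36.0 to 50.5% in the arrays and 33.2% at the border of Tumor 1, and 0 to 1.65% in the arrays and 12.99% at the border of Tumor 2.

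Tnf was also compared within these subsets. In mature-type neutrophils it stood at 2704 CPM at the border of Tumor 1 against 109.9, 299 and 374 CPM, and at 745 CPM at that of Tumor 2 against 172, 155 and 209.7 CPM. In Siglec-F-type neutrophils of Tumor 1 it stood at 2979 CPM against 244, 224 and 224 CPM. Nfkbiz in that kind was at 3049.8 CPM at the border against 426, 403 and 448 CPM, and in mature-type neutrophils at 3738 CPM against 586, 2280.0 and 1809 CPM. The mature-type cells of those arrays number only 13 to 18. Of the neutrophils at the border of Tumor 1, 22.3% held markers of both subsets and 23.2% of neither, and these were not compared.

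Between the Whole Tumor arrays of the 2 tumors, the abundant feedback genes stood higher in Tumor 2, while Tnf had no direction that held across settings. The sums per library were among the values by which the members were chosen, so the contrast of 3 arrays of Tumor 2 with 3 of Tumor 1 is a description for them, with no test. Its log2 changes come from edgeR with TMM scaling over 5106 genes. The SE given with edgeR values is the absolute log2 change divided by the square root of the F statistic. It reflects technical arrays of 2 tumors and not groups of mice. The median log2 change was 1.80 over the members and -0.29 over all genes. Of all genes, 21.6% were called higher in Tumor 2 and 24% lower.

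Nfkbiz had the largest log2 change among the members, 3.13 ± 0.23 (SE). Birc3 stood at 2.39 ± 0.25, Tnfaip3 at 2.32 ± 0.23 and Nfkbia at 2.13 ± 0.22. For each of these 4 genes the 3 arrays of Tumor 2 lay above the 3 of Tumor 1. Tnfrsf1a stood at 1.86 ± 0.26 and Traf1 at 1.74 ± 0.30, again without overlap of the arrays. The share of all genes without such overlap was not counted, so nothing is read from it for these members.

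Tnf gave a log2 change of -0.08 ± 0.25, and its CPM were lower in all 3 arrays of Tumor 2 (167 to 259) than in those of Tumor 1 (293 to 479.6). Its direction turned in 4 of the 15 alternatives, with log2 changes of 0.64 with every barcode that passes the gate, 0.41 with a gate at 3 UMIs, 0.16 without array 1 of Tumor 1 and 0.085 without array 2 of Tumor 2. Nfkb1 gave 0.25 ± 0.26. Tnfrsf1b (0.64 ± 0.21) and Nfkbie (0.93 ± 0.34) were above 0, but their CPM overlap between the tumors.

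The choice of scaling matters for these sizes. TMM shifts the median log2 change of all genes from -1.02, with library size scaling, to -0.29. With library size scaling Nfkbiz (2.43), Birc3 (1.66), Tnfaip3 (1.62), Nfkbia (1.42), Tnfrsf1a (1.15) and Traf1 (1.02) stayed above 0, Tnf was at -0.80, Nfkb1 at -0.47 and Tnfrsf1b at -0.083. The genes called overall then split into 616 higher and 2601 lower, in place of 1104 and 1225. Restricted to mature-type neutrophils, the log2 changes were 1.58 for Nfkbiz, 1.72 for Birc3, 1.18 for Tnfaip3, 1.53 for Nfkbia, 1.95 for Tnfrsf1a and 0.44 for Traf1.

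**Figure D3:**
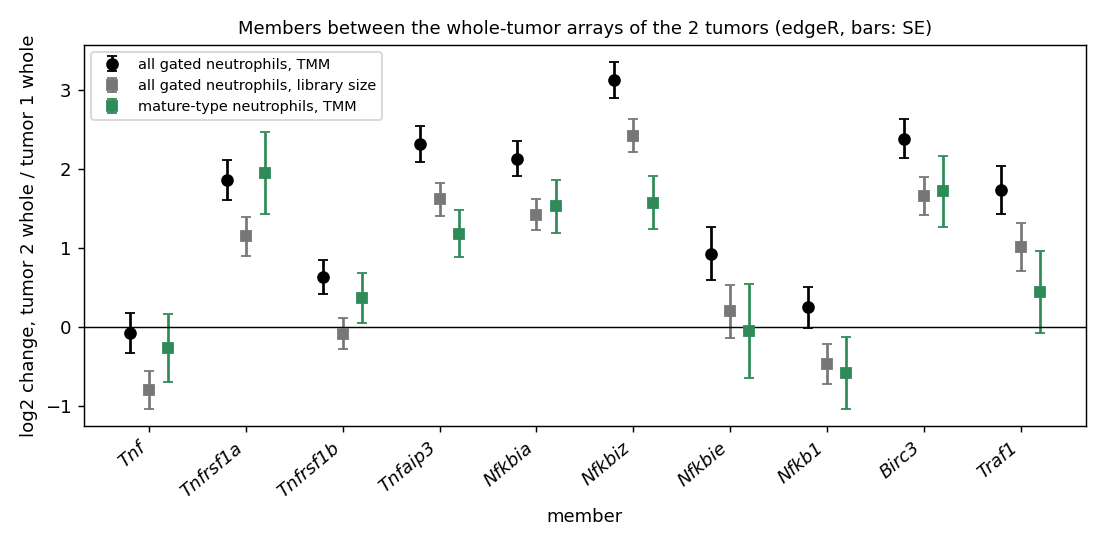
Log2 change of each member between the Whole Tumor arrays of Tumor 2 and Tumor 1 in gated neutrophils (edgeR estimate, with SE from its F statistic, 3 technical arrays each), with TMM, with library size scaling, and in mature-type neutrophils only. Nfkbiz, Birc3, Tnfaip3, Nfkbia and Tnfrsf1a lie above 0 in each of the 3 fits (for Nfkbiz 3.13, 2.43 and 1.58), and Tnf lies below 0 in these 3 fits (-0.08, -0.80 and -0.26) but at 0.64 with every barcode that passes the gate, which is not drawn.

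Markers that move with these contrasts are given beside them. Early response and stress genes, which dissociation of tissue can also switch on, summed to 352 of 10000 neutrophil UMIs at the border of Tumor 1 against 209 to 303 in its arrays, and to 183 at the border of Tumor 2 against 286 to 333. These sums thus moved in the same direction as Tnfaip3, Nfkbia and Nfkbiz in both tumors, and opposite to Tnf in Tumor 2. Single genes did not all follow. At the border of Tumor 1, Fos, Jund, Hspa1a and Hspa1b lay within the arrays. At that of Tumor 2, Jun, Jund and Hspa8 lay within the arrays and Atf3 above them. The other genes of the list lay on the side of the sum. A list of 8 macrophage genes summed to 3.12 of 10000 UMIs at the border of Tumor 1 (3.70 to 7.49 in its arrays) and 5.59 at that of Tumor 2 (5.26 to 11.1), with 1 to 4 of the 8 at 0 in each library and C1qc at 0 in all. C1qc belongs to the gate of C1q macrophages, which neutrophils must not pass, so its low count follows from the gating. Neutrophil markers outside the gate summed to 105 of 10000 UMIs at the border of Tumor 2 against 167 to 187 in its arrays, and to 75.3 at the border of Tumor 1 against 54.5 to 82.8. The gate genes themselves summed to 45.5 against 63.9 to 73.2 in Tumor 2 and to 34.0 against 27.8 to 29.2 in Tumor 1. Both thus moved with the border of Tumor 2 and between the tumors. Mitochondrial UMIs made up 3.97% of neutrophil UMIs at the border of Tumor 1, the lowest share of the 8 libraries, against 4.77 to 5.65% in its arrays. In Tumor 2 they made up 4.46% at the border and 4.23 to 6.31% in the arrays. The part of these markers in the results was not tested.

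The other genes of the pathway were then counted, from lists that hold 77 genes beside the members, 59 of which had enough counts to be tested in neutrophils. The lists were chosen with earlier results of these data known, so their counts are not independent evidence. Each border is 1 library, so the tests below take their error from the technical arrays and assume that the border varies alike. At the border of Tumor 1, 15 of the 59 were higher and none was lower by edgeR (21 and 0 at an unadjusted p under 0.05, 11 and 0 by DESeq2), where 4.68% of all 5106 genes were called higher and 0.685% lower. Induced targets made up most of them, with 12 of 17 higher and a median log2 change of 1.28, against -0.07 over all genes. Cxcl2, a neutrophil chemoattractant, rose from 5486, 4532 and 5306 CPM in the arrays to 21829 CPM (log2 change 2.57 ± 0.29, edgeR adjusted p = 4.90e-10). Ccl3, another chemokine, rose by 2.46 ± 0.28 (edgeR adjusted p = 5.54e-10), and Ptgs2, the inducible cyclooxygenase, by 2.44 ± 0.27 (1.41e-10).

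Genes of the upstream machinery were also counted at the border of Tumor 1. None of the 4 genes of TNF release tested and none of the 17 of the receptor complex and kinase relay was called by edgeR (1 of each was higher at an unadjusted p under 0.05). Since only 4.68% of all genes were called higher, these counts are near the share over all genes, and nothing is read from them. Cflar, which blocks caspase activation at the receptor, rose by 1.01 ± 0.30 (edgeR adjusted p = 0.0279) as the 1 call among 4 death-branch genes, and was called in 8 of 14 alternatives (not by DESeq2 or without array 1 of Tumor 1). Nfkbid, another nuclear IkB, rose by 2.18 ± 0.32 (edgeR adjusted p = 4.91e-07), the 1 call among 7 subunit and IkB genes. Zfp36, which speeds the decay of Tnf mRNA, rose by 2.004 ± 0.29 (edgeR adjusted p = 3.70e-07), the 1 call among 10 other feedback inhibitors. Of 12 early response and stress genes 5 rose, Dusp1 (2.61 ± 0.27), Atf3 (2.06 ± 0.27) and Egr1 (1.94 ± 0.28) foremost. With library size scaling 9 of the 59 were higher and 1 was lower, and the genes called overall split into 101 higher and 285 lower in place of 239 and 35. With at least 500 genes 10 were higher and none was lower, with every barcode that passes the gate 25 of 66 were higher and 2 lower, and within mature-type neutrophils 3 of 43 were higher.

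At the border of Tumor 2, 3 of the 59 were higher and 4 lower by edgeR, where 3.13% of all genes were called higher and 2.66% lower (6 and 11 at an unadjusted p under 0.05, 2 and 4 by DESeq2). The median log2 change was -0.03, against 0.01 over all genes. Among 17 induced targets 2 were higher and 4 lower. Ptgs2 fell by 1.76 ± 0.33 on the log2 scale (edgeR adjusted p = 0.000236), from 2018, 2223 and 1825 CPM in the arrays to 690 CPM. Irf1, an interferon response factor, fell by 1.79 ± 0.52 (edgeR adjusted p = 0.0267). Cd83 had 1 UMI at the border against 58 in the arrays, a ratio of CPM of 0.0845 with an exact counting interval of 0.00210 to 0.490. Trib3, a pseudokinase, was higher by 1.82 ± 0.57 (edgeR adjusted p = 0.0427), from 39 UMIs in the 4 libraries.

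No call was made among the genes of TNF release, the receptor complex, the death branch and the subunits in that tumor (3 higher and 2 lower at an unadjusted p under 0.05). Of the early response and stress genes 4 of 12 fell, with Fos at 759 CPM at the border against 2831, 3347 and 2445 CPM (fell by 2.13 ± 0.35, edgeR adjusted p = 2.87e-05). Hspa1a fell by 2.16 ± 0.38 and Hspa1b fell by 2.92 ± 0.41, but they are near-identical copies whose reads cannot be assigned with certainty. This split was not stable: it was 2 higher and 0 lower of 43 within mature-type neutrophils, 0 and 17 of 66 with every barcode that passes the gate, and 0 and 1 of 76 without the filter on low counts. It was also 2 and 1 of 59 with at least 500 genes, 1 and 3 of 60 with a gate at 3 UMIs, and 1 and 4 of 60, 2 and 5 of 60 and 2 and 3 of 59 without arrays 1, 2 and 3 of Tumor 2. Trib3 was not called without any one of these arrays, Irf1 not without array 1 and Cd83 not without array 3. With at least 500 genes none of the early response genes was called. With library size scaling 3 of the 59 were higher and 2 lower, and the genes called overall split into 265 higher and 84 lower in place of 160 and 136.

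Whether the border differed between the tumors was tested for these genes as the Tumor 1 effect minus the Tumor 2 effect, a comparison added after the data had been seen. Of the 59 pathway genes 12 had a larger and 1 a smaller effect in Tumor 1 by edgeR (4.7% and 2.23% of all genes), 9 of them among the 17 induced targets. Ptgs2 differed most, by 4.21 ± 0.44 (edgeR adjusted p = 2.70e-10). With library size scaling 10 of the 59 had a larger and 6 a smaller effect, and the genes called overall split into 93 and 461 in place of 240 and 114. The count rests on the barcodes kept: 3 had a larger and 0 a smaller effect with at least 500 genes, 27 and 3 of 66 with every barcode that passes the gate, and 1 and 0 of 43 within mature-type neutrophils. The members were not tested in this contrast.

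In the comparison of the Whole Tumor arrays, 26 of the 59 pathway genes were higher in Tumor 2 and 11 lower by edgeR (23 and 7 by DESeq2), where 21.6% of all genes were called higher and 24% lower. Subunit and IkB genes were higher for 6 of 7 (3 with at least 500 genes or with library size scaling) and lower for none, with Nfkbid (2.21 ± 0.28), Bcl3 (2.14 ± 0.34) and Rela (1.37 ± 0.26) foremost. Induced targets were higher for 11 of 17, among them Cd83 (3.53 ± 0.54), Ptgs2 (3.26 ± 0.23) and Il1b (2.89 ± 0.24), and lower for 2. Other feedback inhibitors were higher for 5 of 10, with Zfp36 (3.06 ± 0.24) and Rnf11 (1.80 ± 0.25), and lower for 2, with Trib3 at -1.64 ± 0.40. Genes of TNF release and related ligands were higher for 2 of 4, the ligand gene Tnfsf14 (2.26 ± 0.35) and Rhbdf2 (1.13 ± 0.39, called in 6 of 15 alternatives), whose product helps the shedding protease to mature.

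All 4 tested genes of the death branch were called lower in Tumor 2, a count that was not stable. It was 1 of 4 by DESeq2, 1 of 4 with every barcode that passes the gate, and 1 to 3 with any one array left out (1 of 3 without array 3 of Tumor 1, and 1 of 4 without array 2 or array 3 of Tumor 2). Xiap, a caspase inhibitor, was at -1.22 ± 0.38 (edgeR adjusted p = 0.00767) and Casp8 at -1.03 ± 0.43 (0.0423). Xiap was called in 13 of 14 alternatives and Casp8 in 6 of 15. Ripk3, the necroptosis kinase, had 1 UMI in the arrays of Tumor 2 against 28 in those of Tumor 1, a ratio of 0.0526 with an exact counting interval of 0.00129 to 0.318. In the receptor complex and kinase relay 2 of 17 were higher and 3 lower, among them Map3k14 (2.14 ± 0.40), Ikbke (-2.42 ± 0.31) and Traf2 (-2.01 ± 0.83, from 43 UMIs, called in 5 of 13 alternatives). Of the early response genes 9 of 12 were higher, Fosb (7.19 ± 0.36), Fos (3.71 ± 0.24) and Dusp1 (3.65 ± 0.23) foremost. With library size scaling the 59 genes split into 19 higher and 19 lower, with every barcode that passes the gate 31 of 66 were higher and 5 lower, and within mature-type neutrophils 7 of 43 were higher and 4 lower. With 1 array left out 22 to 27 were higher and 5 to 9 lower (22 and 5 without array 3 of Tumor 2). The comparisons share their arrays, so their values are set side by side and not correlated.

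Detection together with Tnf was among the values by which the members were chosen, and is described here without a test. After thinning to 1000 UMIs, 7 libraries had at least 5 neutrophils with and 5 without Tnf. Nfkbia was found in more of the Tnf-positive ones in 7 of 7 libraries, by 8.64 to 37.3 percentage points (median 21.3), and Nfkbiz in 7 of 7, by 11.1 to 28.4 points (median 19.7). Tnfaip3 was more frequent in 6 of 7 (median 24.8 points). Nfkb1 was more frequent in only 2 of 7 (median -5.65 points) and Tnfrsf1a in 2 of 7 (median -4.04 points). The median gene found in 5 to 95% of a library's neutrophils differed by -2.65 to 0.72 points, and the 90th percentile of these genes by 5.71 to 19.7 points. In Tumor 2, Nfkbia lay below that percentile in arrays 1 and 3, Nfkbiz in array 1 and at the border, and Tnfaip3 in array 1 and at the border.

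At the border of Tumor 1, 95% of 180 Tnf-positive neutrophils held Nfkbia against 73.7% of 137 Tnf-negative ones, 82.2% held Tnfaip3 against 51.1%, and 83.9% held Nfkbiz against 55.5%. The library that departs is the border of Tumor 2, where Tnfaip3 was found in 53.8% of 26 Tnf-positive and 60.5% of 43 Tnf-negative neutrophils. These are shares among cells of 1 library at equal depth. Within mature-type and within Siglec-F-type neutrophils, Nfkbia, Nfkbiz and Tnfaip3 were more frequent with Tnf in 4 of 4 libraries each, by 4.33 to 53.3 points. Many of these differences lay below the 90th percentile over genes of the same cells (8.33 to 26.8 points). Among them were all 3 genes in mature-type neutrophils of array 1 of Tumor 2 and all 3 in Siglec-F-type neutrophils of array 1 of Tumor 1.

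All 3 feedback transcripts together were found in 53.9% of neutrophils at the border of Tumor 1 and in 8.16 to 15.9% in its arrays. In Tumor 2 they were found in 46.4% at the border and in 60.4% and 50.8% in arrays 1 and 3, beside 18.8% of the 16 neutrophils of array 2. Tnf-negative neutrophils held all 3 in 32.8% at the border of Tumor 1, in 4.82 to 10.6% in its arrays and in 44.2 to 57.8% in the border and arrays 1 and 3 of Tumor 2. In array 2 of Tumor 2, with 16 neutrophils in all, this share was 14.3%. At the border and in arrays 1 and 3 of Tumor 2, therefore, feedback transcripts were common also among neutrophils with no Tnf UMI. A Tnf UMI without any of the 3 was found in 3 of 180 Tnf-positive neutrophils at the border of Tumor 1, 9 of 57 in its arrays (5 of 16 in array 1), 0 of 26 at the border of Tumor 2 and 1 of 33 in its arrays.

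**Figure D4:**
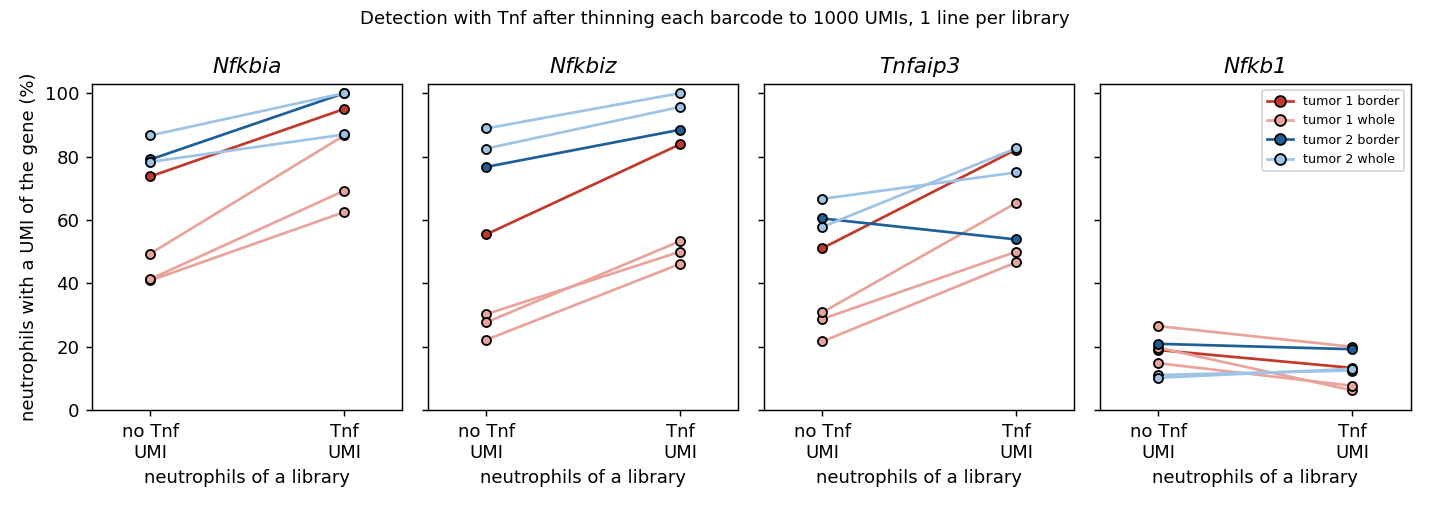
Share of neutrophils with a UMI of Nfkbia, Nfkbiz, Tnfaip3 or Nfkb1 among those without and with a Tnf UMI, with 1 line per library (7 libraries, each barcode thinned to 1000 UMIs). The lines rise for Nfkbia and Nfkbiz in all 7 libraries and for Tnfaip3 in 6 of 7, while those of Nfkb1 are flat or fall in 5 of 7.

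Across the 9 gated cell classes, summed over all libraries, Tnf was highest in neutrophils at 1175 CPM. Macrophages followed, at 268 CPM in C1q-low and 254 CPM in C1q macrophages, then dendritic cells (73.1), epithelial cells (68.3), B cells (45.8), T, NK or innate lymphoid cells (32.7) and endothelial cells (23.0). Fibroblasts had 0 UMIs of 107301, which allows up to 27.96 CPM. The size of the lead of neutrophils rests on the border of Tumor 1. Without that library they were still first in the sum, at 339 CPM, against 239 and 255 CPM in the macrophages. That order did not hold in the Whole Tumor arrays of Tumor 2. There the mean was 309 CPM in C1q macrophages and 216 CPM in neutrophils. The 1116 barcodes that passed no gate held 429 CPM, above both macrophage classes, and 149 CPM without that library. In libraries with at least 10 barcodes of the class, neutrophils ranged from 167 to 3034 CPM (8 libraries), C1q-low macrophages from 101 to 1178 CPM (7) and C1q macrophages from 134 to 433 CPM (4), so that these neighbours overlap. The highest C1q-low value came from a library of 21 barcodes, 2 of them with Tnf.

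The receptors divide by class. Tnfrsf1b was at 1166 CPM in neutrophils, where every library (885 to 1268 CPM) lay above every library with at least 10 barcodes of any other class (at most 707 CPM). Tnfrsf1a was spread over endothelial cells (199 CPM), neutrophils (179 CPM), fibroblasts (158 CPM, 17 UMIs) and macrophages (153 and 148 CPM), and had 0 UMIs in 100 B cells (240055 UMIs, which allows up to 12.5 CPM). The libraries of endothelial cells (147 to 329 CPM), neutrophils (85.3 to 454 CPM), C1q macrophages (140 to 196 CPM) and C1q-low macrophages (50.5 to 219 CPM) overlap. The only library with at least 10 fibroblasts stood at 243 CPM, above every macrophage library and within the range of neutrophils and endothelial cells.

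Among feedback genes, Nfkbia (3814 CPM) and Nfkbiz (2497 CPM) were highest in neutrophils, followed by C1q macrophages for Nfkbia (1591 CPM) and fibroblasts for Nfkbiz (979 CPM). Their libraries overlap those of other classes, since the lowest neutrophil library stood at 1434 CPM for Nfkbia and 563 CPM for Nfkbiz, in arrays of Tumor 1. Tnfaip3 was at 2301 CPM in neutrophils and at 1848 CPM in T, NK or innate lymphoid cells, whose libraries (1052 to 2896 CPM) overlap those of neutrophils (690.1 to 3657 CPM). That order rests on the border of Tumor 1, since without it neutrophils stood at 1691 CPM and the lymphoid cells at 1850.2 CPM. Nfkb1 and Traf1 had another order, with dendritic cells first at 1065 CPM (859 to 1341 CPM in 3 libraries) and 544 CPM (331 to 906 CPM), ranges that overlap those of T, NK or innate lymphoid cells (499 to 987 CPM and 153 to 455 CPM). Neutrophils were next to last of 9 classes for Nfkb1 at 222 CPM, and no neutrophil library reached the lowest dendritic one.

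**Figure D5:**
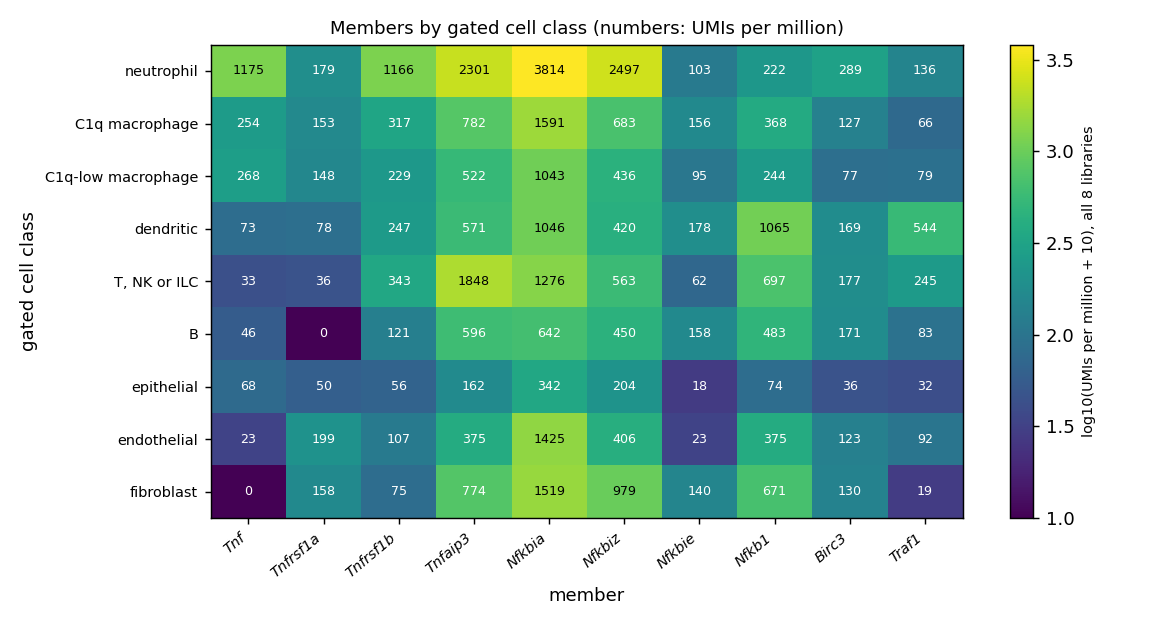
CPM of each member in 9 gated cell classes, summed over all 8 libraries (numbers in the boxes; colour, log10 of the value plus 10). Neutrophils hold the highest Tnf (1175), Tnfrsf1b (1166), Nfkbia and Nfkbiz and, only with the border library of Tumor 1, Tnfaip3, and dendritic cells the highest Nfkb1 (1065) and Traf1 (544).

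The genes whose pattern was most like that of Tnf, by Pearson's r of log2(CPM + 50) over 26 sums of class, tumor and region with at least 10 barcodes, were Ccl4 (0.856), Il1rn (0.855), Tbc1d2 (0.84), 1110007C09Rik (0.83) and Ccl3 (0.83), among 6358 genes. Nfkbia was 281st for Tnf, at 0.60. For Nfkbia the leading genes were Pim1 (0.88), Gadd45b (0.88), Zfp36 (0.86), Ier5 (0.85) and Trib1 (0.85), with Nfkbiz 13th (0.76) and Tnfaip3 17th (0.75). The 26 points share libraries and gates, and these values describe likeness only.

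C1q macrophages numbered 98 at the border of Tumor 2 and 16, 23 and 30 in its arrays, and 1 to 9 in each library of Tumor 1, where they were not compared. At the border of Tumor 2, Nfkbia stood at 1983 CPM against 1455, 854 and 1306 CPM in the arrays, above all 3 and thus opposite to its place in neutrophils of the same libraries. Tnf stood at 228 CPM against 359.7, 134 and 433 CPM, within the arrays. Birc3 (82.0 CPM against 196, 240.2 and 246 CPM) and Traf1 (44.3 CPM against 114, 160.2 and 93.3 CPM) were below all arrays, as were Nfkb1, Tnfaip3, Tnfrsf1a and Tnfrsf1b.

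In all, 1 of 10 members was above, 6 below and 3 within the arrays, where 29.3% of 2268 genes lay above and 18.6% below. Of 42 other pathway genes tested none was called by edgeR (0 higher and 6 lower at an unadjusted p under 0.05, and none by DESeq2). Only 0.39% of 2563 genes were called higher and 0.156% lower, from 4 libraries with 2 residual degrees of freedom.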

How the data were processed

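Single cells of 2 mouse lung tumors were profiled by Seq-Well in 8 libraries. Per the labels and methods, the authors demultiplexed with bcl2fastq 2.17.1.14, aligned to mm10 with STAR 2.5.2b and followed the Drop-seq protocol for barcodes and UMIs; they deposited raw UMI counts per gene and barcode, which is the unit used here. An allele of the mouse model and a marker gene of the mature-type neutrophils are not reported here. The members and gene lists were chosen with earlier results of these data known. Barcodes with at least 200 genes were gated by markers (at least 2 UMIs, no other gate), and doublets were not called; barcodes that pass several gates were left out. CPM are over all UMIs of a class in a library. UMIs of a class were summed per library and fitted with edgeR 4.0.16 in R 4.3.3 (TMM, filterByExpr, quasi-likelihood F test, Benjamini-Hochberg over all genes tested, threshold 0.05), with 1 mean for each tumor and region over 8 libraries (4 residual degrees of freedom, all from technical arrays, whose spread the single border libraries are assumed to share). C1q macrophages were fitted in the 4 libraries of Tumor 2 with at least 10 of them. The fits were tested on simulated counts with the same dispersion in every library. These cannot check whether border libraries vary as the technical arrays do.

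Shares were computed after thinning barcodes to 1000 UMIs, leaving out shallower ones, with exact 95% intervals. Named are the members and, per list and comparison, up to 3 called genes with the largest change and at least 20 UMIs. The count of every called list member is given. Alternatives were DESeq2 1.42.0, no filter on low counts, at least 500 genes, a gate at 3 UMIs, every barcode that passes the gate, each array left out, a replicate block and, chosen after seeing the data, library size scaling, removal of barcodes shared between libraries or with at least 10 of 1 base in a row, and fits within mature-type neutrophils.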

Additional observations from a re-analysis of the deposited data

Results flagged for a closer look

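Members that lay on opposite sides of the arrays at the borders of the 2 tumors, with the arrays of Tumor 1 all below its border and those of Tumor 2 all above its own, were Tnfaip3 (log2 ratio of border to arrays 2.06 and -0.59 in neutrophils), Nfkbia (1.72 and -0.29) and Nfkbiz (2.33 and -0.30). With at least 500 genes per barcode the border of Tumor 2 lay within its arrays for each of them. The difference was not tested for them, since this contrast took part in choosing them.

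Among the other pathway and early response genes, the border effect of Tumor 1 minus that of Tumor 2 passed the edgeR test, on the log2 scale, for Ptgs2 (4.21), Dusp1 (3.92), Hspa1b (3.35), Irf1 (3.02), Fos (2.84), Cxcl2 (2.83), Zfp36 (2.67), Nfkbid (2.65), Tnip1 (1.86) and Trib3 (-2.19). With at least 500 genes Cxcl2, Fos, Hspa1b, Zfp36, Tnip1 and Trib3 did not pass, and within mature-type neutrophils only Ptgs2 and Dusp1 of the 10 did. Tnip1 and Trib3 passed in 6 of 14 alternatives each. The share of early response genes moved with this contrast, as given above, and its part was not tested.

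Barcodes with fewer than 200 genes, which no comparison used, still held transcripts of every member. Their 449 barcodes gave 120 UMIs of Nfkbia, 102 of Nfkbiz, 87 of Tnfaip3, 26 of Traf1, 24 of Tnf, 22 of Tnfrsf1b, 13 of Tnfrsf1a, 12 of Nfkb1, 11 of Birc3 and 8 of Nfkbie, each above the 3 UMIs that a count of 0 allows.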

How the results depend on the processing

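Tnf stayed above all arrays at the border in every setting tried, with log2 ratios of 2.85 to 3.80 in Tumor 1 (3.65 with a gate at 3 UMIs, 3.80 with every barcode that passes the gate, 3.47 with TMM-scaled CPM, 3.37 and 3.69 within mature-type and Siglec-F-type neutrophils) and 1.20 to 2.09 in Tumor 2 (1.47 with at least 500 genes, 1.20 with every barcode that passes the gate). Thinned to 500 UMIs, which lowers every share by construction, Tnf was found in 47.1% of neutrophils at the border of Tumor 1 against 8.91 to 16.3% in its arrays (8.91% in array 2), and in 29.9% at the border of Tumor 2 against 6.10 to 12.5% in its arrays (7.14% in array 3). Among members whose border lay outside the arrays, ratios that changed sign were those of Nfkbia in Tumor 2 with at least 500 genes (0.019) and, within Siglec-F-type neutrophils of Tumor 1, Tnfrsf1b (-0.044) and Traf1 (-0.35). Among those within the arrays, the sign also changed under some settings for Nfkbie in both tumors, Nfkb1 in Tumor 1, and Tnfrsf1b and Traf1 in Tumor 2. Between the Whole Tumor arrays, Nfkbiz, Birc3, Tnfaip3, Nfkbia and Tnfrsf1a stayed higher in Tumor 2 under all 15 alternatives, with a lowest log2 change of 1.15. Changes of sign were Tnf with every barcode that passes the gate (0.64), with a gate at 3 UMIs (0.41) and without array 1 of Tumor 1 (0.16) or array 2 of Tumor 2 (0.085), Nfkb1 with library size scaling (-0.47) and in mature-type neutrophils (-0.59), Tnfrsf1b with library size scaling (-0.083) and Nfkbie in mature-type neutrophils (-0.056). The causes were not tested.

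Counts of called genes moved by over 1.5 times under several settings. The border of Tumor 1 had 274 calls, but 161 by DESeq2, 132 with at least 500 genes, 428 with a gate at 3 UMIs, 1258 with every barcode that passes the gate, 34 in mature-type neutrophils and 221 to 335 with an array left out. The border of Tumor 2 had 296, but 164 by DESeq2, 92 without the filter, 130 with at least 500 genes, 892 with every barcode that passes the gate, 19 in mature-type neutrophils and 164 to 323 with an array left out (164 without array 3 of Tumor 2). The Whole Tumor comparison had 2329, but 413 in mature-type neutrophils and 1512 to 2190 with an array left out (1512 without array 3 of Tumor 2). The tumors' difference at the border had 354, but 199 by DESeq2, 181 without the filter, 135 with at least 500 genes, 1670 with every barcode that passes the gate, 554 with library size scaling, 16 in mature-type neutrophils and 261 to 398 with an array left out. C1q macrophages had 14, but 1 by DESeq2, 8 without the filter, 41 with a gate at 3 UMIs, 41 with every barcode that passes the gate and 0 to 14 with an array left out (0 without array 1 and 8 without array 3 of Tumor 2). DESeq2 gave no adjusted p for 4157 and 3267 of the 5106 genes at the borders of Tumor 1 and Tumor 2.

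Array numbers are shared by the tumors but pair nothing, since the mice differ (correlations of same-numbered arrays -0.026, 0.029 and 0.044). With the replicate block 1781 genes were called in place of 2329.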
